A study of Rattus norvegicus with 91 samples.

Results

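Genes for protein folding were followed in rat liver after methylprednisolone, a synthetic glucocorticoid. The set was chosen by gene symbol alone: heat-shock proteins (Hspa, Hspb, Hspd, Hspe, Hsph and Hsp90), J-domain proteins (Dnaj), subunits of the cytosolic chaperonin TRiC (Cct2 to Cct8 and Tcp1), protein disulfide isomerases (Pdia and P4hb) and the lectin chaperones Calr and Canx. It holds 70 of the 10620 genes that have a probe set with a single symbol on either array design. The rule reads symbols and no measured value, but it and the time windows were set with earlier results of these data known.

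The treated groups were Wistar rats given 50 mg/kg methylprednisolone, whose liver total RNA was hybridised to Affymetrix arrays in 2 separate time courses on different array designs. The short course has 47 arrays that cover 16 times, at 0.25, 0.5, 0.75, 1, 2, 4, 5, 5.5, 6, 7, 8, 12, 18, 30, 48 and 72 h with 2 or 3 arrays each, and 4 controls. The long course has 44 arrays that cover 10 times, at 6, 10, 13, 18, 24, 36, 48, 72, 96 and 168 h with 4 arrays each, and 4 controls. The control labels carry the same dose wording at time 0, and the labels do not state the vehicle, the route, or the sex and age of the animals. The labels do not tie arrays to animals, so the p-values measure the spread between arrays, which may in part be technical. In whole liver, a fall in the number of cells of one type and less RNA per cell cannot be told apart.

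Chaperones hold newly made or damaged proteins until they fold. HSP70 proteins bind short hydrophobic stretches, J-domain proteins bring them their clients, HSP110 proteins exchange their nucleotide, and HSP90 proteins, among whose clients is the glucocorticoid receptor itself, act late in folding. The chaperonins are barrels that enclose a client: TRiC in the cytosol, whose best known clients are actin and tubulin, and Hspd1 with its lid Hspe1 in mitochondria. In the endoplasmic reticulum (ER), through which the liver sends its plasma proteins, Hspa5 (BiP), Hsp90b1 (GRP94), the lectin chaperones and the disulfide isomerases fold secreted proteins.

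Of the 35 genes of the set on the short-course array, 32 passed a filter on low signals, and of the 69 on the long-course array 57 did. The short-course genes under the filter were Dnajc17, Hspa2 and Dnajb14. Those of the long course were Dnajb13, Dnajb3, Dnajb5, Dnajc17, Hspa12a, Hspa12b, Hspa1l, Hspa2, Hspb2, Hspb3, Hspbap1 and Pdia2. The courses shared 34 genes, of which 28 were tested in both. Hspa8 and Hsp90aa1 were not analysed here, because their probe sets carry several symbols. Each gene is given by its brightest probe set, and every change below is a difference of log2(signal + 32) between group means with its standard error, tested with limma and adjusted over all probe sets of the array.

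The arrays differed in quality. In the short course 9 arrays had a mean correlation with the other arrays under 0.9, the lowest at 0.865. They were controls 1 and 3, replicate 3 at 0.5 h, 4 h, 7 h and 8 h, replicate 1 at 2 h, and replicate 2 at 5 h and 72 h. One long-course array, replicate 3 at 96 h, was under 0.9, and the spike-in controls were bright on 14 of the 44, of which 10 are replicate 4. The log2 difference between the 3′ and 5′ Gapdh control probe sets is a sign of RNA quality. In short-course controls it was −0.047 to 0.255 (median 0.182). It was −0.322 to 0.67 (median −0.129) at 0.25 to 0.75 h and −0.21 to 0.233 (median −0.023) at 4 to 8 h. The part of this shift in the short-course changes was not tested. Hepatocyte markers were bright throughout, which fits the labelled tissue, but not constant. The 8 of 9 on the short-course array summed to 72005 to 132151 signal units (median 93208) at 4 to 8 h, against 63839 to 197897 (median 129117) in controls. At 0.25 to 0.75 h the median was 66853. In the long course the median sum was 66274 in controls, 69878 at 6 to 18 h and 101676 at 72 to 168 h. The part of this in the changes of the folding genes was not tested.

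In the short course most calls of folding genes fell between 4 and 8 h. Of the 32 genes tested, 14 changed at some time by the moderated F test, against a background of 34.3% of all named genes tested. In the 4 to 8 h window (17 arrays) 15 were higher than control and 1 was lower, where 16.8% of all named genes tested were called higher and 10.9% lower. Their median change in that window was 0.44, beside 0.11 for all genes. At 0.25 to 0.75 h 1 gene was higher (background 2.65%), although at 0.5 h alone 6 were (background 6.71%) and the median of the folding genes was 0.48, beside 0.11 for all genes. At 1 to 2 h 2 were (7.91%) and at 12 to 18 h 2 were (0.391%). At 30 to 72 h limma called 0 of 32 at an adjusted p under 0.05, with 1 at an unadjusted p under 0.05, and the background was 0.112%. Without the 9 arrays of low correlation, which leaves 2 controls, 3 of the 16 calls at 4 to 8 h stayed: Hspa13, Cct3 and Hsph1. In that fit 161 of all named genes tested were called higher and 86 lower, beside 602 and 389 with every array. Without control 3 alone the count of folding genes was 8. Shares over all genes are not given for the fits of either course that left out 1 array. The counts of the smaller windows also turned on single arrays: 0.25 to 0.75 h gave 5 without control 2 and 0 without control 3 or 4, 1 to 2 h gave 5 without control 2 and 1 without control 3 or 4, and 12 to 18 h gave 1 without control 3 or 4. Set against 0.25 to 0.75 h, the 4 to 8 h window was higher for 4 genes (background 9.81%), a count that was 2 without replicate 3 at 0.25 h and 8 without replicate 1 at 0.5 h. At single times 53 of 512 tests were called, against 6.38% over all genes, and 12 of the 53 held whichever array was left out.

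**Figure D1:**
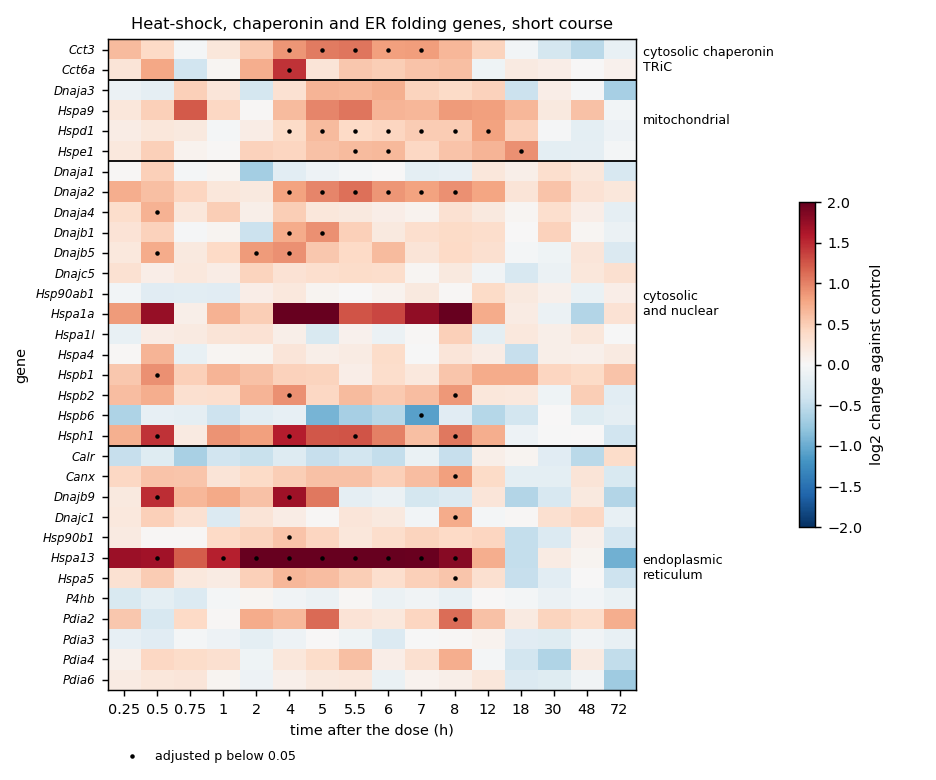
Change in log2(signal + 32) against control for the 32 folding genes tested in the short course (rows, grouped by compartment) at each of the 16 times in hours (columns); dots mark adjusted p under 0.05 and the colour scale ends at 2 on either side. The rows darken between 4 and 8 h, with Hspa13 coloured from the first times on.

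In the long course 33 of 57 genes changed at some time, against a background of 25.3%. Against control, 6 were higher and 1 lower at 6 to 18 h (background 4.98% higher and 5.16% lower), 2 were higher at 24 to 48 h (2.85%), and 3 were higher and 5 lower at 72 to 168 h (5.09% and 6.46%). The controls carried these counts: at 6 to 18 h 12 were called without control 2, 4 without control 1 and 3 without control 4, at 24 to 48 h 0 without control 2 and 1 without control 4, and at 72 to 168 h 5 without any one of the 4. More genes differed between the treated windows. At 72 to 168 h, set against 6 to 18 h (late minus early), 21 genes were lower and 1 higher, where 12.4% of all genes tested were lower and 9.7% higher. The median of that difference was −0.16 for the folding genes and −0.01 for all genes. At single times 38 of 570 tests were called, beside a background of 5.84%, and 7 of the 38 held whichever array was left out. Measures of the arrays themselves moved with the late minus early contrast. The log2 difference between the 3′ and 5′ Gapdh control probe sets, a sign of RNA quality, was 0.30 to 0.44 (median 0.34) at 72 to 168 h, against −0.09 to 0.63 (median 0.15) at 6 to 18 h, and the spike-in controls were bright on 6 of 12 late arrays, against 3 of 16 early ones. With spike-in brightness as a block 5 of the 22 calls ended, those of Canx, Dnajb2, Dnajc2, Dnajc5 and Hsph1. The part of Gapdh in these differences was not tested.

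**Figure D2:**
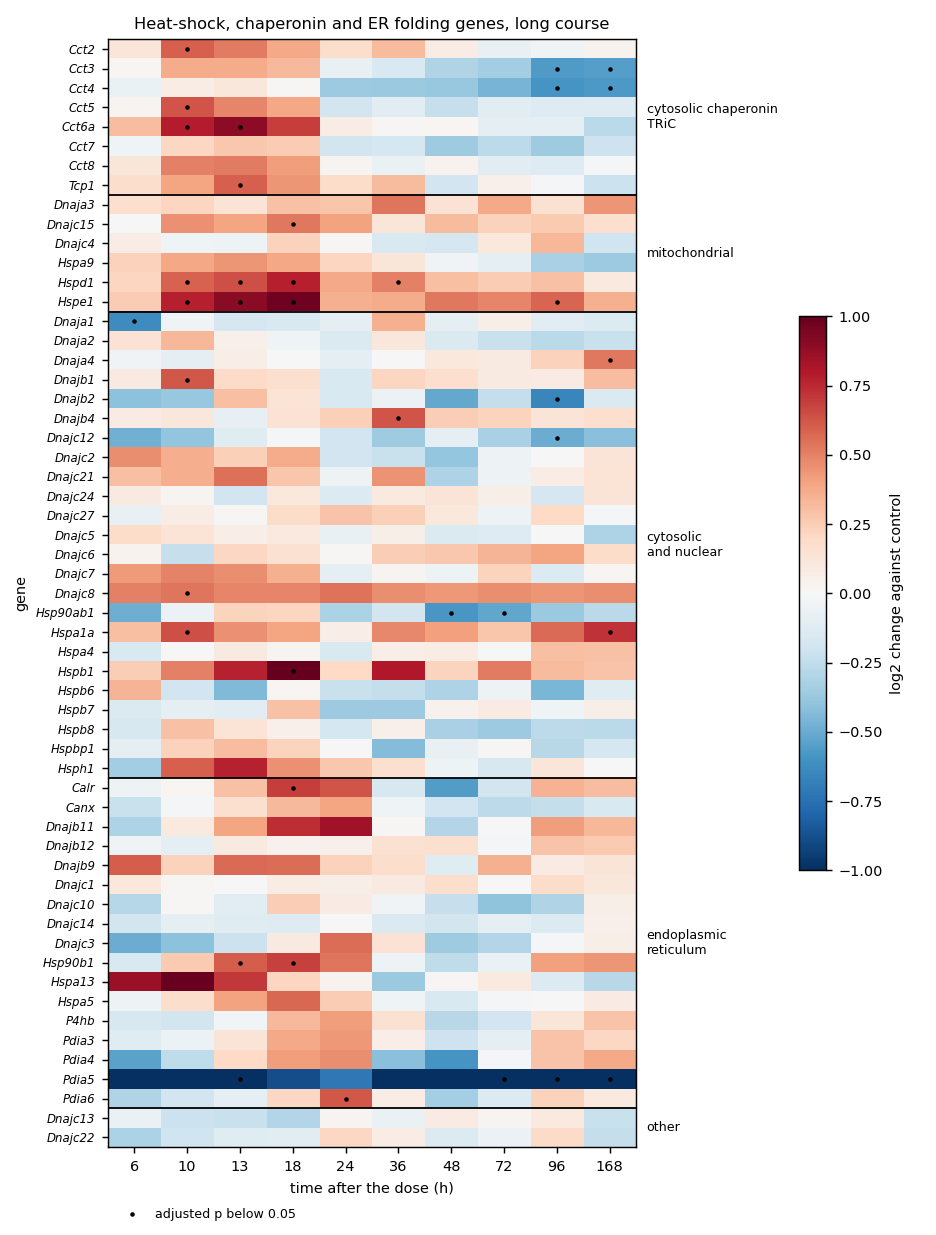
Change in log2(signal + 32) against control for the 57 folding genes tested in the long course (rows, grouped by compartment) at each of the 10 times in hours (columns); dots mark adjusted p under 0.05 and the colour scale ends at 1 on either side, which Pdia5 exceeds. The 8 TRiC rows are above control at 10, 13 and 18 h and below it at 96 h.

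The subunits of TRiC moved together in the long course. All 8 subunits changed by the F test, all 8 had group means above control at 10, 13 and 18 h, and 0 of 8 were above it at 96 h. On the log2 scale the highest time was 10 h in 3 of them and 13 h in 5. In every one the 72 to 168 h arrays were lower than the 6 to 18 h arrays by the test of that difference, and all 12 late arrays lay under the early mean. Their median change against control was 0.39 at 6 to 18 h, −0.09 at 24 to 48 h and −0.14 at 72 to 168 h, beside −0.03, −0.04 and −0.04 for all genes. The median of the late minus early difference was −0.49.

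Cct6a, one of the subunits of the ring, had signals of 302 to 518 (median 382) at 72 to 168 h, against 484 to 982 (median 725.5) at 6 to 18 h. The ranges overlapped between 484 and 518. The difference was −0.82 ± 0.12 (adjusted p = 1.53e-06). For Cct3 the late arrays held 188 to 413 (median 298), against 394 to 657 (median 520) at 6 to 18 h, and overlapped between 394 and 413 (−0.76 ± 0.09, adjusted p = 8.4e-08). Cct4 had 485 to 646 (median 601) at 72 to 168 h, against 744 to 1179 (median 872) at 6 to 18 h, and the windows did not overlap (−0.58 ± 0.08, adjusted p = 1.33e-06). Tcp1, the founding subunit, had 588 to 1148 (median 977.5) late, against 889.5 to 2055 (median 1291) early, with a wider overlap (−0.46 ± 0.09, adjusted p = 0.000323). The other subunits differed by −0.43 ± 0.10 (Cct2), −0.51 ± 0.09 (Cct5), −0.45 ± 0.08 (Cct7) and −0.47 ± 0.11 (Cct8), with adjusted p between 2.51e-05 and 0.00146. These 8 calls held when any one of the 44 arrays was left out. A second, dimmer Cct6a probe set differed by −0.34 (adjusted p = 0.0647).

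Against control, fewer subunits passed. Cct6a averaged 0.67 ± 0.17 above control at 6 to 18 h (adjusted p = 0.00827), where all 16 arrays lay above the control mean of 4 arrays that held 386, 511, 578 and 308. Without control 4 its adjusted p was 0.0884. Cct5 was higher by 0.38 ± 0.13 (adjusted p = 0.0453), with 666 to 1402 (median 1052) at 6 to 18 h, against 654, 940, 966 and 532 in controls, and the call ended in 12 of the 44 leave-outs. At 72 to 168 h Cct4 was lower than control by −0.54 ± 0.12 (adjusted p = 0.00184) and Cct3 by −0.49 ± 0.14 (adjusted p = 0.0163, and 0.139 without control 3). The controls held 1126, 840, 988 and 607 for Cct4 and 409, 385, 551 and 365 for Cct3. Control 4 was the lowest of the 4 controls for 7 of the 8 subunits. The remaining early values, from 0.03 for Cct4 to 0.40 for Cct2 and Tcp1, did not pass.

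**Figure D3:**
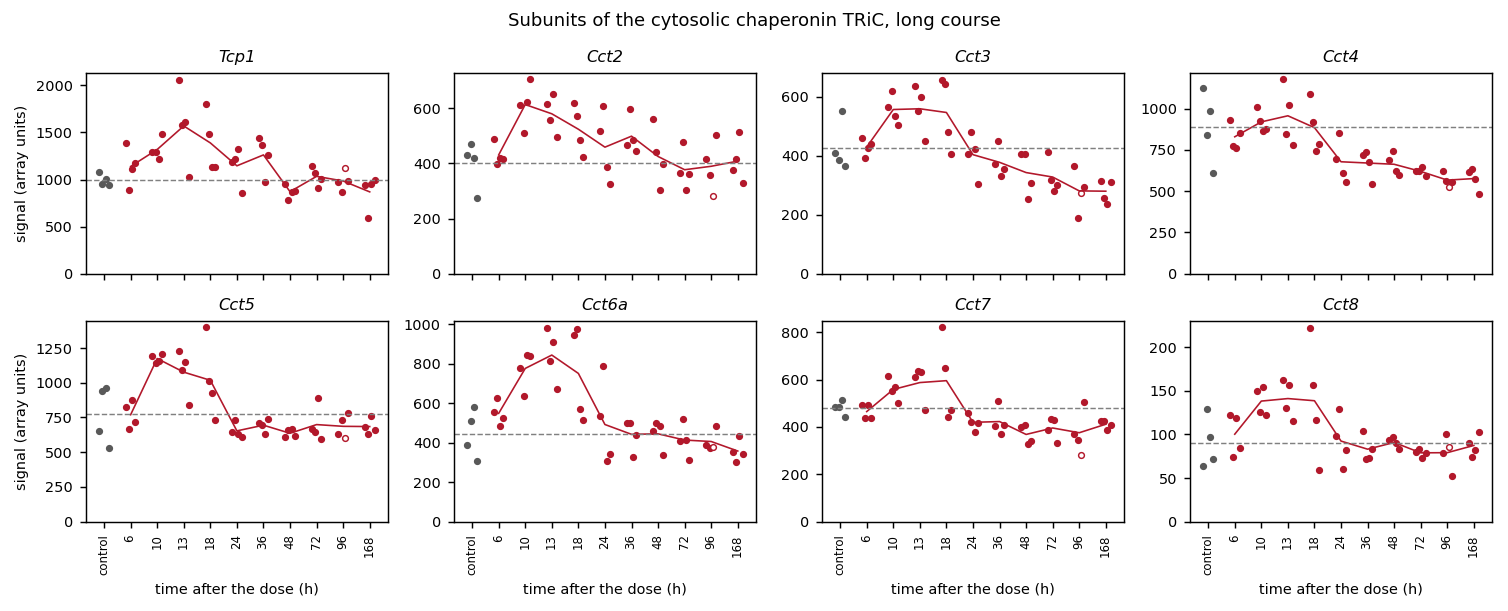
Signal of the 8 TRiC subunits by time in hours in the long course, with treated arrays as red points, control arrays as grey points, group means as a line and the control mean as a dashed line; open points are arrays with a mean correlation under 0.9. The means are highest between 10 and 18 h and lie under the dashed line at 96 h.

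The short-course array carried 2 TRiC genes past the filter, and both rose. Cct3 had signals of 1153 to 2154 (median 1436) at 4 to 8 h, against 717, 748, 828 and 876 in controls. All 17 treated arrays lay above all 4 controls (0.89 ± 0.19, adjusted p = 0.000804), and it was the only TRiC call at that window that stayed without the low-correlation arrays (0.92, adjusted p = 0.0381). Cct6a had 179 to 788 (median 248.5), against 220, 147, 125 and 202, with overlap (0.65 ± 0.24, adjusted p = 0.0434). Its call ended in 10 of the 47 leave-outs. Prefoldin, which hands clients to TRiC, was read from a list of 6 subunits: in the long course 3 of 5 tested were higher at 6 to 18 h (background 4.98%), Pfdn4 by 0.44, Pfdn6 by 0.43 and Pfdn2 by 0.37. The same 3 were lower at 72 to 168 h than at 6 to 18 h, by −0.34, −0.43 and −0.42, and Pfdn2, the one subunit tested in the short course, was higher at 4 to 8 h by 0.42.

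The mitochondrial chaperonin pair, Hspd1 (HSP60) and its lid Hspe1 (HSP10), rose in both courses. The 2 genes lie head to head and their promoter windows share 211 bases, chr9:64084077-64084287 of GRCr8. That shared stretch carries the heat-shock element, the site read by heat-shock factors, searched on both strands as GAA, TTC and GAA with any 2 bases between neighbours. The promoters of the pair and of Hsph1 are shown because they hold the element and their genes rose. They run from 250 bases before to 50 after the start in RefSeq, with the matched bases in capitals: Hspe1 on the plus strand at chr9:64084077-64084376, where 2 overlapping matches run from −65 to −48 of the start base counted as 0, and Hsph1 on the plus strand at chr12:10427118-10427417, with 1 match from −36 to −24.
Hspe1: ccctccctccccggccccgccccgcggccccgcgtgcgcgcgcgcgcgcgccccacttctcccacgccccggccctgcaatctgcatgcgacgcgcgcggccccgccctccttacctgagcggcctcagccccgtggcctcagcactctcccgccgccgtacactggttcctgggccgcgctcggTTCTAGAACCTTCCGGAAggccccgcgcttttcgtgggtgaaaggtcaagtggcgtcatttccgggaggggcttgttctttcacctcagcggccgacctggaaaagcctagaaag
Hsph1: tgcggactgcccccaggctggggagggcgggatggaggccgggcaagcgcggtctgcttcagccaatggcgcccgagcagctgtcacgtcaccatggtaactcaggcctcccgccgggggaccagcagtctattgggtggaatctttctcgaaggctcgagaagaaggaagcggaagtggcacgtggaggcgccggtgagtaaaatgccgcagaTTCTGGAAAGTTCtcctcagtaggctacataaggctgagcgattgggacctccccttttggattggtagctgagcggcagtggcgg

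The element was found in 5 of the 58 members with a RefSeq promoter (8.62%), against 0.798% of 33469 promoters of the same length. The others were Dnaja1, at 9 to 21 after the start (chr5:60638413-60638425, plus strand, GAACTTTCCAGAA), and Cct4, at 25 to 37 (chr14:101193082-101193094, plus strand, TTCTGGAAGGTTC). Of those tested, 3 of 4 changed at some time in the short course and 5 of 5 in the long course by the F test, which has no direction. The shares were 34.3% and 25.3% of all genes, and 14 of 32 and 33 of 57 folding genes. By limma, long-course Dnaja1 was lower than control at 6 h (adjusted p = 0.0369, ended in 4 of 44 leave-outs). Cct4 was lower at 72 to 168 h (adjusted p = 0.00184). Hspd1 and Hspe1 hold the same matched bases. The core glucocorticoid response element ACANNNTGT stood in 3 members' windows (5.17%), those of Hspa1a, Hspb3 and Hspb6, against 6.86% of all promoters. These are matches of letters and show no binding.

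Hspd1 had signals of 8085 to 11698 (median 9348) at 4 to 8 h of the short course, against 7579, 8039, 5234 and 6637 in controls. All 17 treated arrays were above all controls (0.48 ± 0.09, adjusted p = 0.000352). At 12 to 18 h the 5 arrays held 8985 to 12016 (median 10009), again above all controls (0.64 ± 0.12, adjusted p = 0.00189). Hspe1 had 5397 to 8582 (median 6834) at 4 to 8 h, against 6718, 4560, 3691 and 4089, with overlap through control 1 (0.55 ± 0.15, adjusted p = 0.00644), and 6912 to 10202 (median 8003) at 12 to 18 h, above all controls (0.80 ± 0.18, adjusted p = 0.0218). Second probe sets gave 0.63 for Hspd1 and 0.71 for Hspe1 at 4 to 8 h, both past the threshold. The 4 to 8 h call of Hspe1 ended without control 3 (adjusted p = 0.0638), and control 3 was the lowest control for all 4 mitochondrial genes tested.

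Hspe1 in the long course had 1963 to 4435 (median 3364) at 6 to 18 h, against 1898, 1945, 2472 and 1441 in controls. All 16 treated arrays were above the control mean, with overlap at the low end (0.73 ± 0.14, adjusted p = 0.000699), and single times reached 0.78 at 10 h, 0.90 at 13 h and 0.97 at 18 h. It was still higher at 72 to 168 h (0.48 ± 0.15, adjusted p = 0.0286), a call that ended when control 1, 2 or 4 was left out (adjusted p up to 0.175). Hspd1 had 2336 to 4780.5 (median 3837) at 6 to 18 h, against 2791, 2328, 2507 and 2091.5 (0.56 ± 0.12, adjusted p = 0.00129), and 15 of 16 treated arrays were above the control mean. At 24 to 48 h it was higher by 0.39 ± 0.12 (adjusted p = 0.0418; ended in 10 leave-outs). Late minus early, Hspd1 was lower by −0.34 ± 0.08 (adjusted p = 0.00143).

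Hspa9 (mortalin), the mitochondrial HSP70, had 528 to 973 (median 813) at 72 to 168 h, against 764 to 1505 (median 1223) at 6 to 18 h. All 12 late arrays were under the early mean (−0.62 ± 0.10, adjusted p = 6.19e-06), and a second probe set gave −0.65 (adjusted p = 3.71e-05) while another gave 0.03. Its short-course call at 4 to 8 h (0.81 ± 0.31, adjusted p = 0.0456) rested on control 3, at 427 where the other controls held 2373, 2528 and 3666. Without that array the change was 0.15 (adjusted p = 0.727), and the other 2 probe sets gave −0.12 and 0.45, neither past the threshold. Dnajc15, a J-domain protein of the mitochondrial import motor, was higher at 18 h of the long course by 0.52. Among the partners, Grpel1, the nucleotide exchange factor of Hspa9, was higher by 0.46, 0.31 and 0.40 at 6 to 18, 24 to 48 and 72 to 168 h, the one call in each window among 8 mitochondrial partners tested. Trap1, the mitochondrial HSP90, was lower at 4 to 8 h of the short course (−0.61).

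Of the 14 cytosolic and nuclear genes tested in the short course, 6 were higher and 1 lower at 4 to 8 h, beside 16.8% and 10.9% of all genes, with a median of 0.31 against 0.11. Hsph1, the HSP110 nucleotide exchange factor, had signals of 1046 to 3391 (median 1698), against 791, 1249, 817.5 and 489 in controls. All 17 arrays lay above the control mean, with overlap through control 2 (1.12 ± 0.26, adjusted p = 0.0015). The call held in every leave-out of 1 array and without the low-correlation arrays (1.27, adjusted p = 0.0324). Its change was already 1.44 at 0.5 h and reached 1.57 at 4 h, both past the threshold.

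Hspa1a, the stress-inducible HSP70, stood far above the rest on 4 arrays. At 4 to 8 h it ranged from 88.6 to 3779 (median 207), against 36.7, 145, 82.2 and 49.8 in controls. Replicate 3 at 4 h, replicate 2 at 5 h, replicate 3 at 7 h and replicate 3 at 8 h held 1687, 2572, 2154 and 3779, and the other 13 arrays 88.6 to 698 (median 187). These 4 are the low-correlation arrays of that window. The change was 2.01 ± 0.66 with them (adjusted p = 0.0207) and 0.93 without the low-correlation arrays (adjusted p = 0.353), which also leaves out controls 1 and 3, and the call also ended without control 1, 3 or 4. Long-course Hspa1a had 61.5 to 199.7 (median 140.1) at 72 to 168 h, against 88.3, 78.2, 73.2 and 83.2 in controls, so that 11 of 12 arrays were above the control mean (0.52 ± 0.17, adjusted p = 0.0397; ended in 8 leave-outs). Over all times Hspa1a did not pass the F test in the short course (adjusted p = 0.111) or in the long one (adjusted p = 0.107).

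Other HSP70 and HSP90 genes differed less. Hspa4, a second HSP110-type protein, was not past the threshold at 4 to 8 h by its brightest probe set (0.19), whereas another probe set gave 1.12 (adjusted p = 2.54e-05). Hsp90ab1, the constitutive cytosolic HSP90, was at 0.09 in the same window (adjusted p = 0.636). The long-course arrays held 1379.5 to 2689 (median 1736.5) at 72 to 168 h, against 2304, 2856, 2044 and 2268 in controls. Of those 12 arrays 2 were above the control mean, and the change of −0.38 ± 0.13 (adjusted p = 0.0455) ended in 16 leave-outs. The 4 arrays at 48 h, with 1389, 1802, 1450 and 1613, were all below every control (−0.59, adjusted p = 0.0244). Late minus early it was lower by −0.36 ± 0.09, and a second probe set gave −0.53.

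Among the J-domain proteins, Dnaja2 had 1285 to 2504 (median 1794) at 4 to 8 h of the short course, against 815, 1352.5, 910 and 838 in controls. All 17 treated arrays were above the control mean, with overlap through control 2 (0.91 ± 0.18, adjusted p = 0.000318). Dnajb1, the partner of the inducible HSP70, was higher by 0.51 ± 0.16 (adjusted p = 0.0149) and Dnajb5 by 0.53 ± 0.16 (adjusted p = 0.0146), with each call ending without 2 of the controls. Dnaja1 did not pass (−0.12). Dnajc8, a splicing-associated J-domain protein, had long-course signals of 224 to 296.5 (median 265) at 6 to 18 h, against 213, 130, 212 and 151 in controls, and did not overlap with them (0.51 ± 0.13, adjusted p = 0.0127). It was also higher at 24 to 48 h (0.48) and 72 to 168 h (0.45), and each of these calls ended when control 2 or 4 was left out. Over all times Dnajc8 did not pass the F test (adjusted p = 0.315). Dnajc7, which bridges HSP70 and HSP90, was higher at 6 to 18 h (0.43 ± 0.13, adjusted p = 0.0317), a call lost without any one control. Dnajc12 was lower at 72 to 168 h (−0.41 ± 0.13, adjusted p = 0.0312), a call that ended without control 2, control 3 or replicate 4 at 96 h.

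Late minus early, 9 of 24 cytosolic genes were lower, beside 12.4% of all genes, and their median was −0.15. Dnaja2 was lower by −0.36, Dnajc7 by −0.40, Dnajc2 by −0.34, Dnajc5 by −0.27, Dnajb2 by −0.26 and Hsph1 by −0.39, while Dnaja4 was higher by 0.29. Of these calls Dnajc2 ended in 23 of the 44 leave-outs, Dnajb2 in 19 and Hsph1 in 13. Hspb8 and Hspbp1, an HSP70 exchange factor, were lower by −0.38 and −0.31. Small heat-shock proteins, which hold unfolded clients without ATP, gave scattered calls. Hspb1 (HSP27 in the human nomenclature) held 287, 267, 311 and 411.5 at 18 h of the long course, against 112.5, 249.9, 128 and 19.2 in controls. All 4 treated arrays lay above all controls (1.36 ± 0.38, adjusted p = 0.0291), and the call ended in 5 of the 44 leave-outs (adjusted p up to 0.193). Long-course Hspb1 did not pass the F test over all times (adjusted p = 0.165). Hspb2 was higher (0.66) and Hspb6 lower (−0.61) at 4 to 8 h of the short course, and the Hspb2 call ended without control 3, its far array at 228.

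Some of the cytosolic partners changed as well. Of 16 co-chaperones and heat-shock factors tested in the long course 3 were higher at 6 to 18 h (background 4.98%): Fkbp5, an HSP90 immunophilin and a known glucocorticoid target, by 1.73, Ahsa1, the HSP90 ATPase activator, by 0.44, and Ptges3 (p23) by 0.36. Late minus early 5 of 16 were lower (background 12.4%): Chordc1 (−0.45), Ahsa1 (−0.43), St13 (−0.40), Stip1 (−0.40) and Ptges3 (−0.39). Among the 7 tested in the short course, 3 were higher at 4 to 8 h (background 16.8%), with Stip1, which joins HSP70 to HSP90, at 0.84, Chordc1 at 0.62 and Ppid at 0.46.

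In the ER the short-course changes were led by Hspa13 (STCH), an HSP70 relative of the microsomes. Its signals at 4 to 8 h ran from 513 to 1429 (median 946), against 219, 434, 88.5 and 96.5 in controls. No treated array of that window overlapped with the controls (2.17 ± 0.29, adjusted p = 1.92e-06), and the call held in all 47 leave-outs (highest adjusted p 9.81e-05) and without the low-correlation arrays (1.88, adjusted p = 0.00801). It was also the one member called at 0.25 to 0.75 h, where the 9 arrays held 319 to 915 (median 538) and overlapped with control 2 only (1.53 ± 0.31, adjusted p = 0.00437). That early call ended without control 3 (adjusted p = 0.0567) or control 4 (0.0558). At 1 to 2 h the change was 1.92 ± 0.35 (adjusted p = 0.000606), and at 18 h the 3 arrays held 189, 80.3 and 97.8, of which 1 was below every control and the others were within their range. Set against 0.25 to 0.75 h, the 4 to 8 h window was higher by 0.64 ± 0.21 (adjusted p = 0.032).

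**Figure D4:**
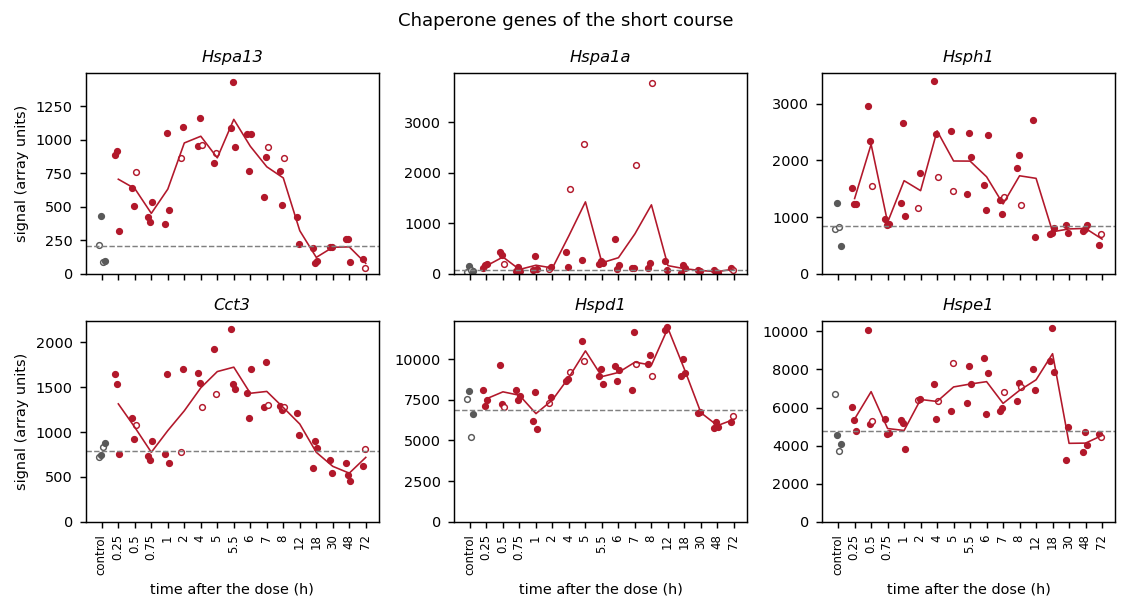
Signal of Hspa13, Hspa1a, Hsph1, Cct3, Hspd1 and Hspe1 by time in hours in the short course. Treated arrays are red points, control arrays grey points, group means a line and the control mean a dashed line. Open points are arrays with a mean correlation under 0.9. Hspa13 stands above its controls from 4 to 8 h on every array, and the 4 highest Hspa1a points of that window are open.

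Hspa5 and Hsp90b1, the abundant ER chaperones, rose less. Hspa5 had 8824.5 to 13894 (median 11603) at 4 to 8 h, against 5773, 11137, 7055 and 8504 in controls. All 17 arrays lay above the control mean, with overlap through control 2 alone (0.52 ± 0.13, adjusted p = 0.00308). Hsp90b1 had 6397 to 9786 (median 7652), against 3676, 7921, 6175 and 6810 (0.40 ± 0.14, adjusted p = 0.036), and its call ended without control 1 (0.376), control 3 (0.071) or replicate 1 at 5 h (0.0549), with median centring (0.211) and without the low-correlation arrays (0.646). Other probe sets of Hsp90b1 gave 0.73 and 0.59, both past the threshold, and those of Hspa5 gave 0.54 (adjusted p = 0.0335) and 0.38 (adjusted p = 0.367). Canx, the membrane lectin chaperone, was higher by 0.60 ± 0.16 (adjusted p = 0.0054), with 3742 to 8603 (median 5596), against 3463, 5362, 3389 and 3394. Calr, its soluble relative, was at −0.36 (adjusted p = 0.106), P4hb at −0.08, Pdia3 at −0.07, Pdia4 at 0.40 and Pdia6 at 0.09, none past the threshold.

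Dnajb9 (ERdj4), a J-domain partner of Hspa5, was called higher at 0.5 h and at 4 h. It held 3318, 2717 and 2359 at 0.5 h and 4190, 3214 and 2453 at 4 h, against 894, 1781, 749 and 742.5 in controls. All 6 arrays were above every control, with changes of 1.48 (adjusted p = 0.0321) and 1.69 (adjusted p = 0.0081). The low-correlation array of each time held the lowest of its 3 values. At 5.5 h Dnajb9 held 864, 781 and 918, within the control range.

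The ER stress element, a site read with the unfolded protein response factor ATF6, was searched on both strands as CCAAT and CCACG with any 9 bases between. It stood in 5 of 17 ER promoters (29.4%), against 0.0657% of all promoters. Those of Hspa5, on the plus strand at chr3:38452766-38453065 with 1 match from −43 to −25, and Hsp90b1, on the minus strand at chr7:23012244-23012543 with matches from −176 to −158 and from −72 to −54, are shown as the 2 abundant chaperones described above. The matched bases are in capitals.
Hspa5: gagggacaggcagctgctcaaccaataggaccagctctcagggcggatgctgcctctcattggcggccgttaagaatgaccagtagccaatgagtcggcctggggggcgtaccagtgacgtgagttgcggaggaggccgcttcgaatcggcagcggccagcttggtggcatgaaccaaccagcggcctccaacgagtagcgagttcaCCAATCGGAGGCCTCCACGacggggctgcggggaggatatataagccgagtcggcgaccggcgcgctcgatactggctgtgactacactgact
Hsp90b1: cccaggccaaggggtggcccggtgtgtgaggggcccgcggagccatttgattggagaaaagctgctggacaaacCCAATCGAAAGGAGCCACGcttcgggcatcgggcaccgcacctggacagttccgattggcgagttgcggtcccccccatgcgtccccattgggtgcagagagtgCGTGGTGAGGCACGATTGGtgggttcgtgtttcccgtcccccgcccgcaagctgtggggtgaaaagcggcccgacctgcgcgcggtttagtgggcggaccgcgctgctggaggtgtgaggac

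The other 3 were Calr (−232 to −214, chr19:40213135-40213153, plus strand, CGTGGTCGACCCTGATTGG), Canx (−230 to −212, chr10:35158069-35158087, minus strand, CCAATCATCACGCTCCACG) and Dnajc3 (−133 to −115, chr15:102432534-102432552, plus strand, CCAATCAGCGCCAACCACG). By the F test, which has no direction, 3 of the 4 tested changed in the short course, Calr being the exception. In the long course 5 of 5 did. The shares were 34.3% and 25.3% of all genes, and 6 of 12 and 11 of 17 ER genes.

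In the long course 11 of 17 ER genes changed at some time, beside 25.3% of all genes. The group means of all 11 were above control at 18 and 24 h, 1 of 11 was above it at 48 and at 72 h, and 8 and 9 were at 96 and 168 h. The mean was highest at 24 h in 7, at 18 h in 3 and at 10 h in 1, and lowest at 48 h in 7. Of all 17 ER genes tested 15 and 16 were above control at 18 and 24 h, and 3 at 48 and at 72 h. Their median was 0.32, 0.40 and −0.23 at 18, 24 and 48 h, beside −0.03, −0.04 and −0.03 for all genes. As single times 2 and 1 of 17 were called higher at 18 and 24 h (background 2.68% and 0.83%). At 48 h 0 were called lower (1.86%). Window averages hide this: the ER median was 0.05, 0.08 and 0.07 at 6 to 18, 24 to 48 and 72 to 168 h. The smallest F test adjusted p-values were 3e-05 for Hsp90b1, 0.000288 for Dnajc3 (p58IPK) and 0.000298 for Calr. Pdia6, Pdia4, Dnajb11 (ERdj3) and Pdia3 lay between 0.000831 and 0.00336, and Hspa13, P4hb, Hspa5 and Canx between 0.0151 and 0.0338.

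Calr held 2193, 2393, 2633.5 and 3426 at 18 h and 1074, 868, 1583 and 930.0 at 48 h, against 1864, 2112, 1085 and 1583.5 in controls. The 18 h arrays were above all controls and all 48 h arrays below the control mean. The changes were 0.69 at 18 h (adjusted p = 0.0488, ended in 32 of 44 leave-outs), 0.63 at 24 h and −0.56 at 48 h, the last 2 not past the threshold as single times. Hsp90b1 held 2920, 3260, 3535 and 4564 at 18 h and 1952, 1663, 2219 and 1549 at 48 h, against 2050, 3236, 1880 and 1822 in controls. It was higher at 13 h (0.61, adjusted p = 0.0253) and at 18 h (0.68, adjusted p = 0.0109). Hspa5 held 4423, 3896, 3915 and 3929 at 18 h, above controls at 2291, 3814, 2826 and 2127. That change of 0.58 was not past the threshold as a single time. At 18 h of the short course every array of Hspa5 and of Hsp90b1 was below its control mean (−0.467 and −0.47). The difference between the courses was not tested. Pdia6 was higher at 24 h (0.62, adjusted p = 0.0498), a call that ended in 35 of 44 leave-outs. Control 2 was the highest of the 4 controls for 13 of the 17 ER genes in the long course and for 9 of 12 in the short course.

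**Figure D5:**
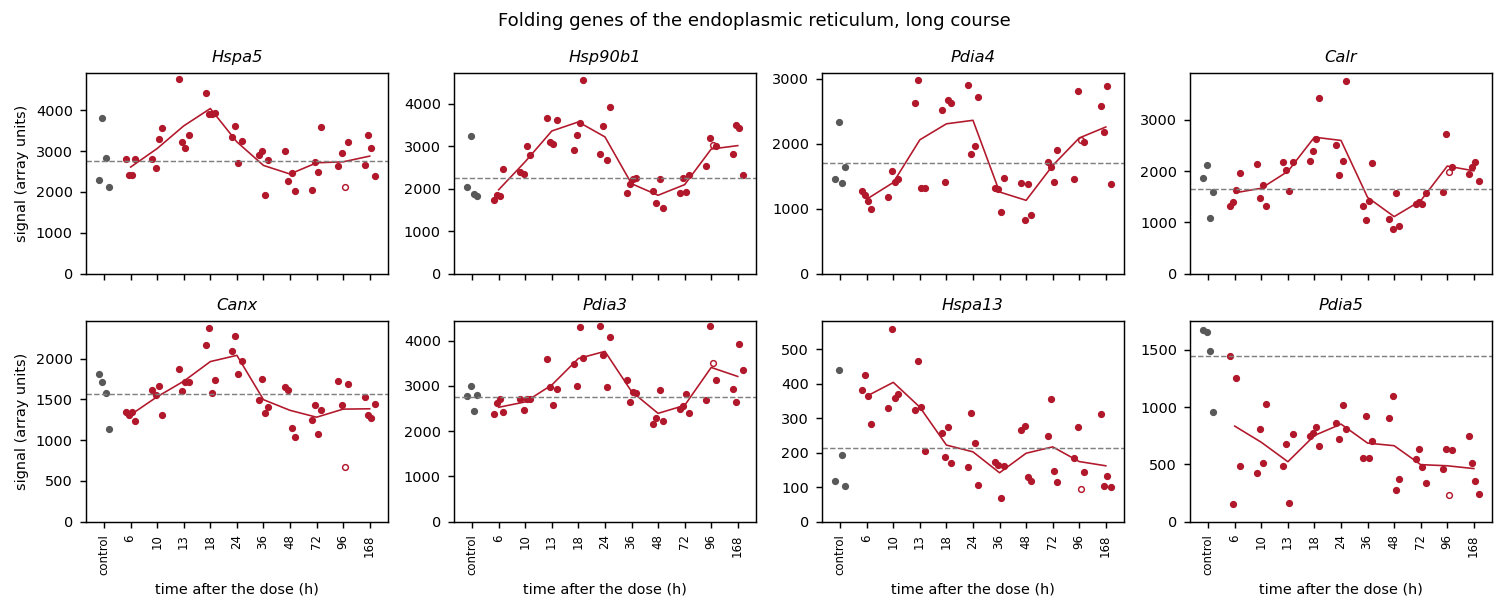
Signal of ER folding genes by time in hours in the long course, with treated arrays as red points, control arrays as grey points, group means as a line and the control mean as a dashed line; open points are arrays with a mean correlation under 0.9. In most panels the means are high at 18 and 24 h and low at 48 h, while Pdia5 lies under the dashed line at these times.

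Pdia5, a disulfide isomerase, ran against the others. Over all times it did not pass the F test (adjusted p = 0.0979). It had 155.5 to 1447 (median 713) at 6 to 18 h and 230.5 to 746 (median 493.5) at 72 to 168 h, against 1677, 1661, 1488 and 954 in controls. Every late array was below all controls (−1.57 ± 0.36, adjusted p = 0.00274). The early change of −1.17 ± 0.35 (adjusted p = 0.0295) ended when control 1, 2 or 3 was left out. Hspa13 had 93.6 to 356 (median 145.5) at 72 to 168 h, against 171 to 557 (median 330) at 6 to 18 h, with overlap (−0.80 ± 0.19, adjusted p = 0.00174). Against the controls, which held 117, 441, 193 and 104, its early change of 0.69 did not pass.

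Among ER partners in the long course, 2 of 23 were higher at 6 to 18 h (background 4.98%): Edem1, a lectin that sends misfolded glycoproteins to degradation, by 2.53 ± 0.22 (adjusted p = 1.64e-10) and Ero1b, the oxidase that recharges disulfide isomerases, by 0.64. Of 12 ER stress factors and targets tested, Manf alone was called higher in that window (0.57). Of 7 ER partners tested in the short course 2 were higher at 4 to 8 h, near the background of 16.8%, Vcp (0.62) and Sec61a1 (0.55), and Ppp1r15a, the phosphatase subunit that lifts the block on translation, was the 1 of 6 ER stress genes called higher at 0.25 to 0.75 h (2.04) and at 1 to 2 h (1.98).

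Markers of other cells also moved. S100a8 and S100a9, the 2 of 8 neutrophil markers on the short-course array, were higher than control at 0.25 to 0.75 h by 2.95 and 2.05, at 1 to 2 h by 4.02 and 3.23 and at 4 to 8 h by 2.98 and 2.03, and their summed signal at 4 to 8 h was 499 to 4575 (median 1126), against 106 to 606 (median 189) in controls. The long-course array carried 4 neutrophil markers, of which 1 passed the filter, and it was called in no window. These 4 summed to 46 to 230 (median 129) at 6 to 18 h, against 54 to 288 (median 101) in controls. The 6 Kupffer cell markers on the long-course array summed to 2107 to 2469 (median 2186) in controls. They summed to 983 to 2269 (median 1648) at 6 to 18 h, 1010 to 1479 (median 1344) at 24 to 48 h and 927 to 2755 (median 1337) at 72 to 168 h. In these windows 3, 5 and 3 of the 6 were called lower than control, where the backgrounds were 5.16%, 2.81% and 6.46%. Of 3 Kupffer cell markers tested in the short course 1 was lower than control at 4 to 8 h (background 10.9%). In the other short-course windows 0 were called. The 3 erythroid markers summed to 386 to 5439 (median 2601) at 72 to 168 h, against 338 to 2379 (median 550) at 6 to 18 h. Controls held 423 to 3769 (median 2598), so the late median was near that of controls and the early one under it. The part of these cells in the changes of the folding genes was not tested.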

How the data were processed

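Liver RNA of treated and control rats was measured on Affymetrix arrays, 47 in the short course and 44 in the long course. The deposited values are intensity per probe set on a linear scale, scaled by the authors so that the mean after trimming 2% at each end is 801 in the short course and 150.1 in the long one, as the values themselves show. One short-course array (6 h, replicate 3) stood at 150.2 and was rescaled to its course. The software behind the intensity values is not given in the sources used here. Arrays give no counts, so their number limits the precision.

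Samples were grouped by the times in the titles. One long-course array titled 96 h is described as 72 h and one titled 48 h carries the short course's wording; the titles were kept. Gene symbols came from the platform annotation. Control probe sets and probe sets with a mean signal under the 30th percentile (91.2 and 35.7) were left out, which kept 6118 and 11106 probe sets. log2(signal + 32) was fitted with limma 3.58.1 in R 4.3.3 (eBayes with a trend), one mean per group, over all arrays of a course. Windows are unweighted means of group means minus control, and p-values were adjusted by Benjamini-Hochberg over all probe sets tested. A gene was called at an adjusted p under 0.05. The background is the share of named genes called, 3579 tested in the short course and 8069 in the long one.

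The members, lists and windows were chosen with earlier results of these data known. Every member could be named. The inducible and constitutive heat-shock genes, the TRiC subunits, the mitochondrial chaperonins and the main ER chaperones were described whatever they showed, with the 3 largest calls in each direction of each window. At most 4 genes were named per partner list. Tested on simulated data with 200 changed probe sets, the fit recovered 78% of those changed by 1 on the log2 scale at 4 to 8 h of the short course (6118 probe sets) and 95% at 6 to 18 h of the long course (11106 probe sets). For changes of 0.5 the shares were 29% and 32%.

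Alternatives were the added constant, quantile and median scaling, no low-signal filter, the mean of probe sets, replicate and spike-in blocks, array weights, fits of the compared groups alone, and leaving out low-correlation arrays or each array in turn. Promoters are from RefSeq (GRCr8), and 58 of 70 members matched by symbol.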

Additional observations from a re-analysis of the deposited data

Results flagged for a closer look

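Single arrays far from the others of their group were sought in 313 groups of 4 arrays, and 19 were found, where chance flags about 1 in 20 groups. In the short course Canx had 5361.7 on control 2, where the other controls held 3389.0 to 3462.6, and Hspb2 had 227.8 on control 3, where the others held 521.9 to 607.5. Long-course Hspbp1 had 102.3 on control 3, against 133.4 to 137.7 on the other controls.

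Among treated arrays of the long course, some stood above the other 3 of their time. They were Cct6a at 96 h (486.2), Dnaja2 at 6 h (684.9), Dnaja4 at 48 h (196.0), Dnajb2 at 36 h (302.5) and 72 h (298.9), Dnajc8 at 36 h (456.3) and 72 h (278.8), and Hspe1 at 24 h (3119.7) and 168 h (2872.1). Others stood below. They were Cct7 at 13 h (471.0), Dnajc2 at 96 h (42.4), Dnajc8 at 13 h (224.2), Hspa13 at 36 h (68.7), Hspd1 at 10 h (3043.0), Hsph1 at 96 h (255.7) and Tcp1 at 168 h (587.8).

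Treated windows of 1 course differed by limma's test of the difference itself for 4 genes of the short course. At 4 to 8 h, set against 0.25 to 0.75 h, Cct3 was higher by 0.556, Hsp90b1 by 0.327, Hspa13 by 0.638 and Hspd1 by 0.286. At 72 to 168 h of the long course, set against 6 to 18 h, the cytosolic differences were −0.358 for Dnaja2, 0.295 for Dnaja4, −0.257 for Dnajb2, −0.335 for Dnajc2, −0.271 for Dnajc5, −0.402 for Dnajc7, −0.355 for Hsp90ab1, −0.375 for Hspb8, −0.314 for Hspbp1 and −0.386 for Hsph1. The TRiC differences were −0.427 for Cct2, −0.761 for Cct3, −0.577 for Cct4, −0.507 for Cct5, −0.823 for Cct6a, −0.446 for Cct7, −0.475 for Cct8 and −0.464 for Tcp1. Canx differed by −0.282, a call that ended in 16 of 44 leave-outs, Hspa13 by −0.797, Hspa9 by −0.621 and Hspd1 by −0.341.

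At the times that both courses sampled, 112 pairs of changes were compared. In 11 every array moved one way in the short course and the opposite way in the long course. The difference was not tested. Pairs in which all arrays moved the same way were not counted, nor was the share over all genes. The 11 pairs are therefore listed singly and not read as a trait of the folding genes. At 6 h Canx was at 0.484 in the short course and −0.226 in the long one. At 18 h the short-course and long-course changes were −0.322 and 0.096 for Dnajc5, −0.199 and 0.328 for Canx, −0.582 and 0.557 for Dnajb9, −0.47 and 0.681 for Hsp90b1, and −0.467 and 0.578 for Hspa5. At 48 h they were 0.185 and −0.587 for Pdia4, and −0.197 and 0.302 for Hspd1. At 72 h they were 0.133 and −0.516 for Hsp90ab1, 0.372 and −0.18 for Calr, and −0.034 and 0.485 for Hspe1. Each course has its own controls and array design.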

How the results depend on the processing

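All counts are of folding genes called by limma. The share of all genes called also shifts with the setting and is not given beside each count. In the short course the count at 0.25 to 0.75 h was 1 as reported, 2 with quantile normalization, the mean of probe sets or array weights, and 0 with a replicate block, without the low-correlation arrays or with only the groups compared. At 1 to 2 h it was 2 as reported, 1 with a replicate block or only the groups compared, and 0 without the low-correlation arrays. At 4 to 8 h it was 16 as reported and 3 without the low-correlation arrays, where 2 controls remain. At 12 to 18 h it was 2 as reported, 1 with quantile normalization or a replicate block, and 0 without the low-correlation arrays or with only the groups compared. Calls between the 4 to 8 h and 0.25 to 0.75 h windows numbered 4 as reported, 8 with the mean of probe sets and 9 with array weights. Single-time calls numbered 53 as reported, 33 with median centring, 23 with a replicate block and 7 without the low-correlation arrays. The long-course count at 24 to 48 h was 2 as reported and 1 without a low-signal filter, with array weights or with only the groups compared. The 72 to 168 h count was 8 as reported, 4 with array weights and 3 with only the groups compared. One gene changed sign: Hspa9 at 4 to 8 h of the short course was at −0.056 (adjusted p = 0.952) without the low-correlation arrays. The cause was not tested. The deviations of same-numbered replicates of different times had a mean correlation of −0.006 over 338 short-course pairs (−0.625 to 0.77). In the long course it was 0.052 over 220 pairs (−0.192 to 0.469). For different numbers the means were 0.004 and −0.016. A mean over such a spread cannot decide whether equal numbers mark paired animals or a shared batch. With the replicate block the 4 to 8 h count was 11.

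Leaving out 1 array at a time gave 13 to 16 genes changed at some time in the short course, 27 to 66 single-time calls, and 0 to 5, 1 to 5, 8 to 17, 1 to 2 and 0 to 0 genes at 0.25 to 0.75, 1 to 2, 4 to 8, 12 to 18 and 30 to 72 h, with 2 to 8 between 4 to 8 h and 0.25 to 0.75 h. The long course gave 30 to 35 genes changed at some time, 19 to 47 single-time calls, 3 to 12, 0 to 3 and 5 to 9 genes at 6 to 18, 24 to 48 and 72 to 168 h, and 18 to 23 between 72 to 168 h and 6 to 18 h. The low ends at single times came without control 3 in the short course and control 1 in the long one. The calls between 4 to 8 h and 0.25 to 0.75 h numbered 2 without replicate 3 at 0.25 h and 8 without replicate 1 at 0.5 h. Other probe sets of the same genes had the same sign in 183 of 250 comparisons and the same call in 221. In the simulated data, with 200 changed probe sets, most changes of 0.5 on the log2 scale were missed. The real fit called more, 602 named genes higher and 389 lower at 4 to 8 h. The simulated shares need therefore not hold for it. The differences between treated windows were not simulated.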
